A study of Schizosaccharomyces pombe with 24 samples.

Results

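The *mug* and *meu* genes of *Schizosaccharomyces pombe* (fission yeast) are genes whose transcripts were first catalogued as increased during meiosis, and their names stand for meiotically upregulated gene and meiotic expression upregulated. Every gene whose symbol begins with *mug* or *meu* followed by a digit was taken as a member, whatever its level or its change. The rule found 123 genes of the 5195 in the expression tables, 105 of them *mug* genes and 18 *meu* genes, and it used no measured value. Of these, 59 lie on chromosome I, 34 on chromosome II and 30 on chromosome III, which is 48.0%, 27.6% and 24.4% of the members, against 45.6%, 36.5% and 18% of all genes.

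Poly(A) RNA of cultures grown at 30 °C gave 24 libraries from 8 genotypes with 3 apiece: 6 strains with a cancer-associated amino acid substitution in histone H2B (gene *htb1*), namely *htb1-G52D*, *htb1-P102L*, *htb1-E75Q*, *htb1-D67N*, *htb1-E112K* and *htb1-E34K*, a strain labelled *set1*Δ, and wild type (WT) with unaltered *htb1*. The H2B mutants are named below by their substitution alone. Set1 is the histone H3 lysine 4 methyltransferase. All listed strains carry *leu1-32* and *ura4-D18*. The strain list gives WT as h+ with *ade6-M216*, *htb1-E34K*, *htb1-E75Q*, *htb1-D67N* and *htb1-E112K* as h+ with *ade6-M210* and a *kanMX6* cassette beside *htb1*, and *htb1-G52D* and *htb1-P102L* as h- with an unspecified *ade6* allele. The *set1* deletion in that list is h+ and replaced by *kanMX6*. Against WT, effects of a listed difference in mating type, *ade6* allele or cassette therefore cannot be told apart from those of the substitutions. By that list E34K, E75Q, D67N and E112K share these markers with each other. The growth phase at harvest was not given in the sources used here.

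Haploid fission yeast divides by mitosis while nitrogen is plentiful. On starvation the transcription factor Ste11 switches on the genes for mating and for entry into meiosis, cells of opposite mating type fuse, and the RNA-binding protein Mei2 starts meiosis in the diploid. The forkhead factor Mei4 then drives the middle meiotic genes, and 4 spores form inside new membranes. In growing cells many meiotic transcripts that are nevertheless made are removed by the RNA-binding protein Mmi1 and the nuclear exosome, and meiotic genes in heterochromatin islands are held down by histone methylation. Many *mug* and *meu* genes have since been given roles in spores, membranes, transport or metabolism, and many still have none.

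Library totals were 18935513 to 28181070 counts. Counts of *set1* were 336, 362 and 412 under the *set1*Δ label, against 20, 20 and 32 in WT, so the targeted gene went against the label there. The label of that genotype field reads knockdown rather than deletion, and these samples are called the libraries labelled *set1*Δ throughout. The mutated gene *htb1* had 212546 to 238225 counts in D67N, 111586 to 201136 in E75Q and 88025 to 158906 in E112K. It had 22014 to 30646 in G52D, 23303 to 43714 in P102L and 17564 to 29871 in E34K. WT had 15413 to 21152, and the libraries labelled *set1*Δ had 14377 to 21670. The part of *htb1* RNA in the members' changes was not tested. Counts of *ura4*, the marker that all listed strains should lack, reached 1382 in G52D replicate 1, 712 in P102L replicate 1 and 865 in WT replicate 3, and did not exceed 2 in any other library. The mating-type gene *mat1-Mc* had 238, 129 and 0 counts in G52D, 78, 150 and 0 in P102L and 103 in WT replicate 3, with at most 1 elsewhere. The gene belongs to the M (h-) cassette, so the 103 counts in WT replicate 3 and the 0 counts in replicate 3 of G52D and of P102L go against the strain list, as do the 3 *ura4* libraries. Calls are given below also without those 3.

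The *mug* and *meu* genes were weakly expressed in WT. Their median in WT was 0.82 FPKM (fragments scaled by transcript length and by library size, the authors' value, averaged over 3 libraries), with the middle of the distribution between 0.25 and 3.69 FPKM, against a median of 4.10 FPKM for the other genes. Of the 123 members, 66 were under 1 FPKM (53.7%, against 25.2% of all genes) and 95 were under the median of all genes, 3.93 FPKM. The exceptions were 10 members at 10 FPKM or more. The highest was *mug33*, whose product binds the polarity protein Tea1 and acts in exocytosis, at 126 ± 5.27 FPKM in WT (SD, n = 3). It was followed by *mug134* (Igo1, an endosulfine that restrains the phosphatase PP2A on starvation) at 39.1 ± 10.9 FPKM and *mug64*, a BAR domain protein, at 33.4 ± 3.06 FPKM. At the other end, *mug28*, *mug96*, *mug116* and *mug128* had 0 counts in all 3 WT libraries, and *mug116* had 0 counts in every library of the series.

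The summed level of the members was higher in 5 of the H2B mutants and in the libraries labelled *set1*Δ than in WT. CPM (counts scaled by library size and by the trimmed mean of M values over all libraries) summed over the 123 members averaged 1496 ± 161 in G52D, 1531 ± 94.8 in P102L, 1444 ± 25.3 in E75Q, 1500 ± 177 in D67N, 1419 ± 66.9 in E112K, 1129 ± 50.6 in E34K and 1332 ± 42.2 in the libraries labelled *set1*Δ, and 1117 ± 32.3 in WT (SD, n = 3 each). Every library of those 5 mutants and of the *set1*Δ label lay above all 3 WT libraries in this sum, whereas the range of E34K, 1074 to 1174 CPM, overlapped the 1080 to 1142 CPM of WT. The 3 highest members of each library made up a large part of the sum. Without them it was 876 to 1079 CPM in those 5 mutants and 741 to 764 CPM under the *set1*Δ label. E34K was then at 714 to 774 CPM and WT at 695 to 709 CPM. The median member was at 2.25 to 3.0 CPM in G52D, 1.97 to 2.44 CPM in P102L, 2.13 to 3.38 CPM in E75Q, 2.04 to 3.06 CPM in D67N, 2.19 to 2.57 CPM in E112K, 1.86 to 2.66 CPM in E34K and 1.93 to 2.17 CPM in the libraries labelled *set1*Δ, and at 1.60 to 1.69 CPM in WT.

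The libraries also differed in how their counts were spread over genes. The 100 most abundant genes took 53.8% to 59.0% of the counts in G52D, 54.7% to 60.8% in E75Q, 56.5% to 62.5% in P102L, 57.0% to 61.9% in D67N, 57.7% to 62.6% in E34K, 58.5% to 64.4% in E112K and 60.6% to 62.3% in the libraries labelled *set1*Δ, and 61.9% to 65.4% in WT. The libraries with the lowest shares, G52D replicate 1 and E75Q replicate 2, had member medians of 3.0 and 3.38 CPM. Next in order of share, P102L replicate 3 (56.5%) had 2.44 CPM and D67N replicate 3 (57.0%) had 3.06 CPM. G52D replicate 3 (57.3%) and P102L replicate 2 (57.5%) followed with 2.25 and 2.04 CPM. The part of this difference in the members' levels was not tested. In bulk RNA, a few cells with much of a transcript and many cells with little of it cannot be told apart.

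**Figure D1:**
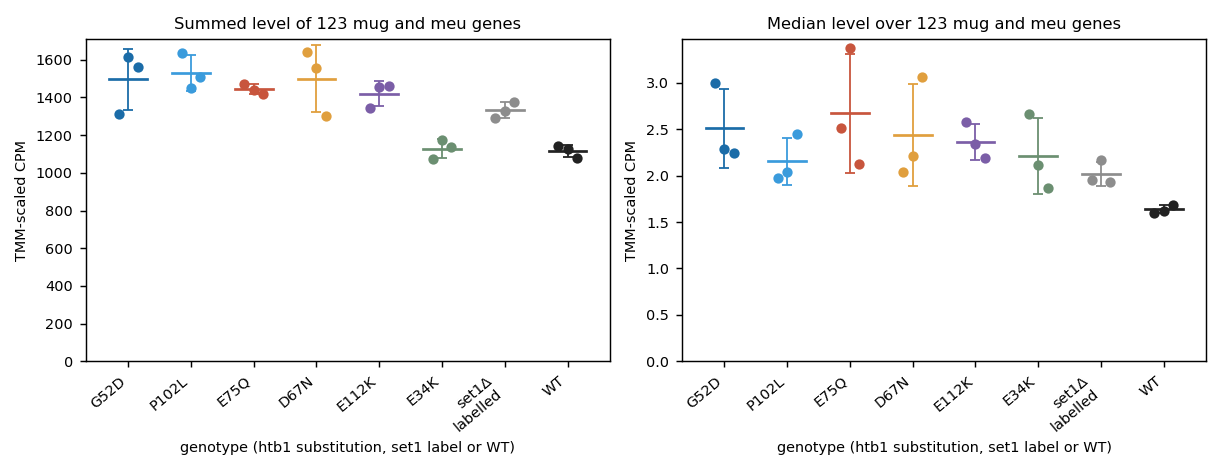
Level of the 123 *mug* and *meu* genes in each library, as the sum (left) and the median (right) of their CPM; points are libraries, the line is the mean of 3 and the bar its SD. In the right panel every mutant library lies above the 1.60 to 1.69 CPM of WT, and in the left panel *htb1-E34K* overlaps WT.

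Each mutant was compared with WT in edgeR's quasi-likelihood test over all genes. To count as a call, a change had to reach 2-fold in size with its p, adjusted by the Benjamini-Hochberg method, below 0.05. In 5 H2B mutants and in the libraries labelled *set1*Δ, members were called higher more often than genes at large. From 0 to 2 members were called lower in each, which was close to the share of all genes in E112K and under the *set1*Δ label. In G52D, 27 of the 100 members tested were higher and 2 were lower, against 13.4% and 8.07% of all genes tested. In P102L, 22 of 100 were higher and 0 lower, against 9.93% and 3.48% (edgeR found 12 members lower at an unadjusted p under 0.05, and DESeq2 called 1 lower). In E75Q, 25 of 98 were higher and 1 lower, against 13.0% and 8.48%. In D67N, 24 of 97 were higher and 0 lower, against 10.8% and 4.48% (11 lower at an unadjusted p under 0.05, and 1 by DESeq2). In E112K, 23 of 98 were higher and 2 lower, against 7.96% and 2.34%. In the libraries labelled *set1*Δ, 11 of 98 were higher and 1 lower, against 5.16% and 1.30%. Without the *ura4* libraries, G52D had 26 members higher and 1 lower, and P102L had 24 and 3. Some members passed the filter on low counts through the mutant libraries, which itself favoured a rise. With at least 10 counts required in every library, the members higher were 22 in G52D, 20 in P102L and 21 in E75Q. They were 17 in D67N, 18 in E112K and 6 under the *set1*Δ label. The shares of all genes under that filter are not given here. These comparisons all use the same 3 WT libraries, so their counts are not independent of each other. A further 19 members were tested in none of these comparisons, with at most 29 counts in any library.

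As shares of the members tested, the higher calls came to 27.0% in G52D, 22% in P102L, 25.5% in E75Q, 24.7% in D67N, 23.5% in E112K and 11.2% in the libraries labelled *set1*Δ. As shares of all 123 members they were 22%, 17.9%, 20.3%, 19.5%, 18.7% and 8.94% in the same order. The median log2 fold change of the tested members was 0.41 in G52D, 0.35 in P102L, 0.37 in E75Q, 0.39 in D67N and 0.33 in E112K, where the median of all genes lay between 0.03 and 0.09. Under scaling by total counts instead, the median of all genes moved up by 0.17 to 0.67 over the comparisons, and the counts of members became 47 higher and 0 lower in G52D, 28 and 0 in P102L, 38 and 1 in E75Q, 32 and 0 in D67N, 32 and 0 in E112K, 2 and 0 in E34K and 15 and 1 in the libraries labelled *set1*Δ. All genes were then called higher in 33.9%, 17.8%, 28.5%, 18.1%, 15.2%, 2.34% and 7.86% of cases.

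**Figure D2:**
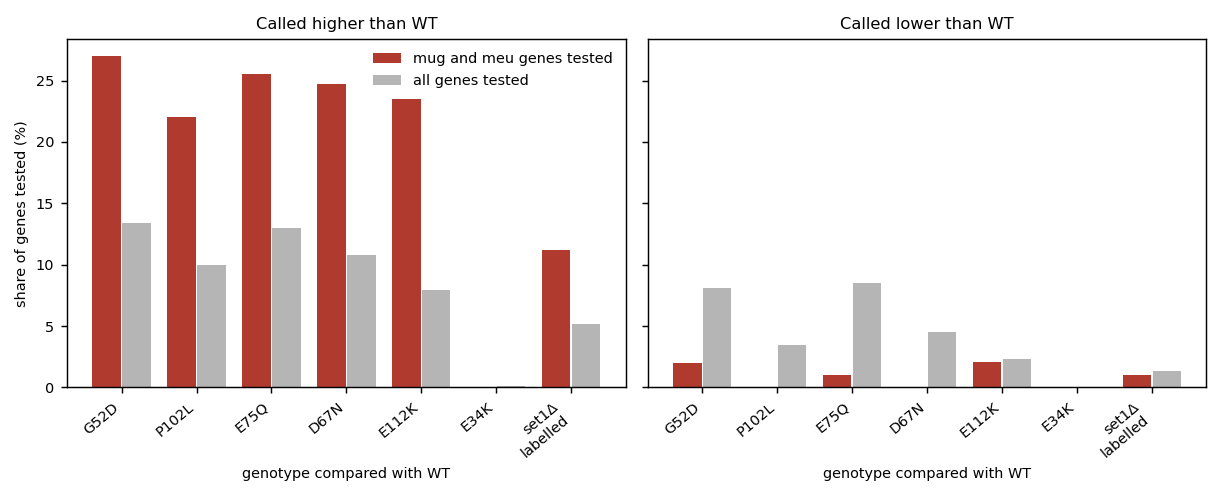
Share of the tested *mug* and *meu* genes and of all tested genes called higher (left panel) or lower (right panel) than WT in each comparison. Members exceeded all genes among the higher calls in every comparison but *htb1-E34K*, where 0 of 97 members were called.

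Weakly expressed genes were called higher more often than strong ones, so the members were also set against genes of like mean CPM. The mean was taken over all 24 libraries, mutants included, so a gene's own rise could move it to 5 CPM or more. The split therefore does not match genes on their level in WT, and it was made after the data had been seen. Among genes averaging under 5 CPM, members were higher in 23.6% of cases in G52D (all genes 19.1%), 14.5% in P102L (11.2%), 26.4% in E75Q (17.1%), 25% in D67N (14.1%), 24.5% in E112K (13.9%) and 17.0% in the libraries labelled *set1*Δ (7.5%). Among the 45 members at 5 CPM or more, 14 were higher in G52D and 14 in P102L, which is 31.1% in each, against 11% and 9.38% of all genes at that level. There the share was 24.4% in E75Q and in D67N, 22.2% in E112K and 4.44% in the libraries labelled *set1*Δ, against 11.2%, 9.32%, 5.31% and 4.16% of all genes. Lower calls among all genes under 5 CPM came to 4.06% in G52D, 2.79% in P102L, 3.32% in E75Q, 3.6% in D67N, 1.38% in E112K and 1.31% under the *set1*Δ label. At 5 CPM or more they came to 9.84%, 3.77%, 10.7%, 4.87%, 2.77% and 1.3% in the same order. The few lower calls of members were not split this way.

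Over the whole set, 46 members were called higher in at least 1 H2B mutant and 5 were called lower. Of the 103 members tested in at least 1 of them, that is 44.7% and 4.85%, against 23.7% and 13.6% of all genes tested in at least 1. In 5 H2B mutants, the same 9 members were called higher: *mug8*, *mug14*, *mug27*, *mug35*, *mug68*, *mug108*, *mug143*, *mug147* and *mug168*. Over all 8 genotypes together, edgeR's quasi-likelihood F test found differences at an adjusted p under 0.05 in 73 of 110 members, against 68.8% of all genes. The 9 are described next because the rule for named genes picks members called in 4 or more, and their recurrence is not further evidence, since the WT libraries are shared.

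**Figure D3:**
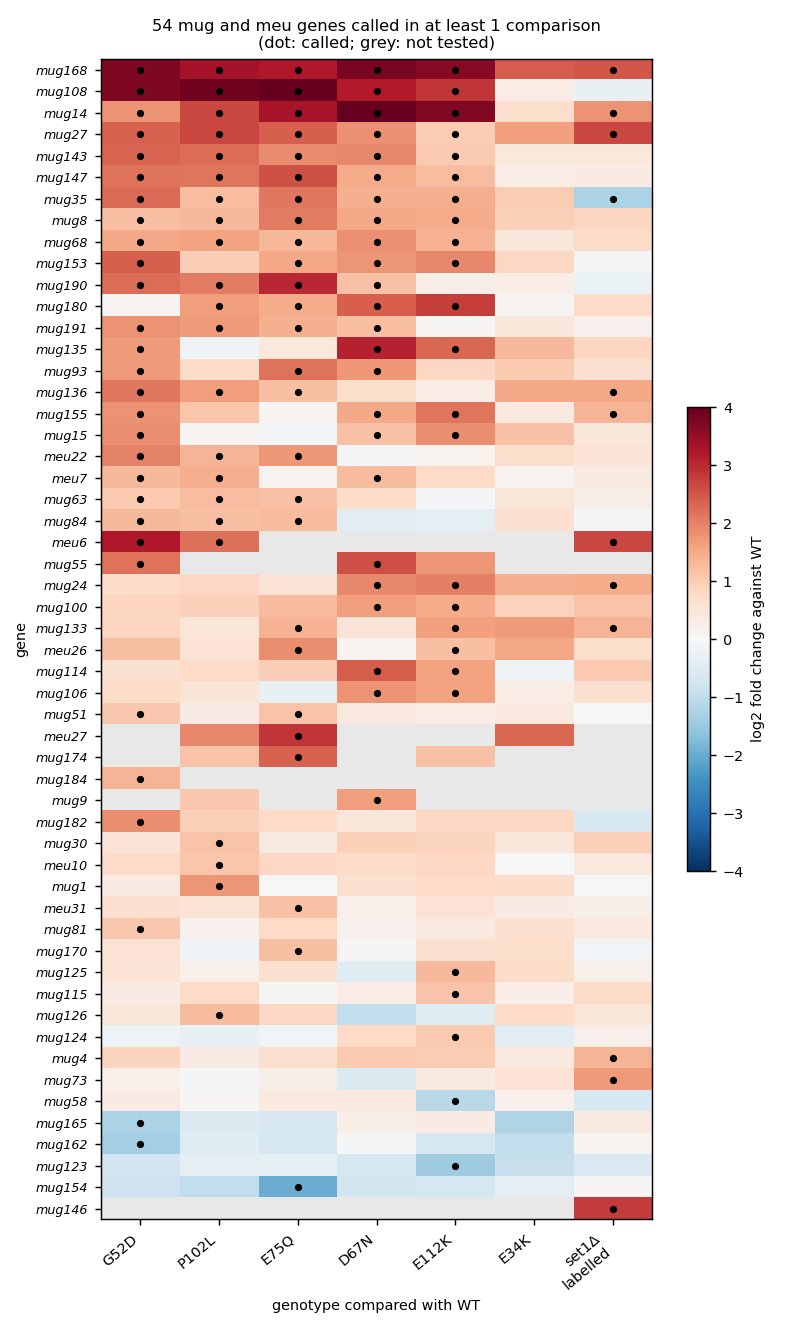
Log2 fold change against WT of the 54 *mug* and *meu* genes called in at least 1 comparison with WT (rows) in the 7 comparisons (columns); a dot marks a call and grey a member not tested. Most dots are on members that were higher, and the *htb1-E34K* column has none.

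A pair of these members has an assigned role in spore formation or the cell cortex. The kinase gene *mug27* (Slk1) acts in forming the spore membrane after meiosis. It had 28.6, 42.3 and 39.2 CPM in G52D, 44.3, 45.1 and 42.7 CPM in P102L, 42.1, 35.8 and 35.0 CPM in E75Q, 24.2, 24.1 and 24.4 CPM in D67N and 15.6, 13.3 and 13.4 CPM in E112K, against 8.95, 6.80 and 5.57 CPM in WT. No library of these mutants overlapped WT. Its log2 fold change was 2.66 ± 0.17 (SE, edgeR adjusted p = 1.53e-06) in P102L and 1.02 ± 0.19 (SE, edgeR adjusted p = 0.00372) in E112K. The call in E112K fell under 2-fold without WT replicate 2 (0.99), WT replicate 3 (0.86) or E112K replicate 1 (0.94). *mug27* was likewise higher in the libraries labelled *set1*Δ, at 43.5, 40.3 and 46.1 CPM, a log2 fold change of 2.68 ± 0.17 (SE, edgeR adjusted p = 6.39e-06).

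The adducin gene *mug14*, a homologue of the membrane-skeleton protein, differed widely between mutants. It had 48.9, 51.5 and 51.5 CPM in D67N, 19.0, 21.0 and 18.6 CPM in E112K, 12.7, 27.5 and 5.64 CPM in E75Q, 3.69, 13.9 and 10.7 CPM in P102L and 1.92, 6.41 and 7.68 CPM in G52D, against 1.48, 2.06 and 1.07 CPM in WT. D67N was 34.8-fold above WT, with a log2 fold change of 5.12 ± 0.22 (SE, edgeR adjusted p = 1.98e-07), and its 3 libraries nearly coincided. The G52D libraries overlapped WT, and that call was lost without WT replicate 1 (edgeR adjusted p = 0.056), WT replicate 3 (edgeR adjusted p = 0.0553) or G52D replicate 3 (edgeR adjusted p = 0.0643).

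The other members of this group have no assigned molecular role. *mug108*, found only in the genus *Schizosaccharomyces*, had 62.6, 103 and 130.5 CPM in G52D, 119, 80.4 and 118 CPM in P102L, 155, 144 and 93.9 CPM in E75Q, 95.8, 60.0 and 37.9 CPM in D67N and 46.5, 59.4 and 52.7 CPM in E112K, against 11.1, 4.93 and 6.24 CPM in WT. The folds ran from 7.27 in E112K to 17.4 in E75Q, where the log2 fold change was 4.12 ± 0.32 (SE, edgeR adjusted p = 3.16e-06). E34K, at 18.9, 3.67 and 4.19 CPM, and the libraries labelled *set1*Δ, at 8.56, 4.26 and 4.79 CPM, overlapped WT. In the reference annotation *mug108* lies wholly inside *rga3*, a gene on the opposite strand. The log2 fold changes of *rga3* were 3.52, 3.39, 3.77, 2.98 and 2.45 in the same 5 mutants, close to those of *mug108*, 3.73, 3.86, 4.12, 3.17 and 2.86. Whether counting used strand is not given in the sources used here, so reads of *mug108* and *rga3* cannot be told apart.

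*mug168*, also confined to *Schizosaccharomyces*, had very few reads in WT and rose in the same 5 mutants. Its counts were 7, 9 and 10 in WT. It thus passed the filter on low counts through the mutant libraries, which itself favoured a rise, so its folds are not given. It had 6.52, 7.18 and 6.18 CPM in G52D, 3.50, 5.66 and 5.50 CPM in P102L, 3.45, 6.58 and 3.81 CPM in E75Q, 6.32, 7.34 and 6.47 CPM in D67N, 5.27, 5.38 and 7.75 CPM in E112K, 2.66, 2.73 and 2.44 CPM in E34K and 2.59, 2.21 and 3.23 CPM in the libraries labelled *set1*Δ, against 0.415, 0.561 and 0.511 CPM in WT. No mutant library overlapped WT. It was called in those 5 mutants and under the *set1*Δ label. In E34K it missed the threshold (edgeR adjusted p = 0.0522).

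Among the 5 mutants with calls, *mug143* and *mug147* had their smallest changes in E112K. *mug143* had 44.0, 65.4 and 56.3 CPM in G52D and 54.8, 49.9 and 47.2 CPM in P102L, against 13.6, 12.2 and 7.0 CPM in WT. Its log2 fold change was 2.34 ± 0.25 (SE, edgeR adjusted p = 0.000144) in G52D and 1.04 ± 0.27 (SE, edgeR adjusted p = 0.0178) in E112K. The E112K call fell under 2-fold without WT replicate 3 (0.78) or E112K replicate 2 (0.83). *mug143* lies wholly inside *SPAC167.05* on the opposite strand, whose log2 fold changes were 0.57 in G52D and -0.20 in E112K. *mug147* had 36.7, 53.3 and 37.7 CPM in E75Q, against 7.06, 7.55 and 7.05 CPM in WT, a log2 fold change of 2.54 ± 0.20 (SE, edgeR adjusted p = 3.16e-06).

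*mug35*, *mug68* and *mug8* complete this group. *mug35* had 20.9, 30.1 and 33.7 CPM in G52D and 2.22, 2.49 and 2.35 CPM in the libraries labelled *set1*Δ, against 4.27, 7.92 and 5.57 CPM in WT. It was higher in G52D, with a log2 fold change of 2.26 ± 0.25 (SE, edgeR adjusted p = 0.000178), and lower in the libraries labelled *set1*Δ, with -1.25 ± 0.23 (SE, edgeR adjusted p = 0.00273), the opposite direction. The log2 fold changes of *mug68* in the 5 H2B mutants lay between 1.32 in E75Q and 1.83 in D67N. *mug8*, conserved among fungi, had 3.40, 7.06 and 3.26 CPM in E75Q, against 1.30, 1.37 and 0.562 CPM in WT, a log2 fold change of 2.08 ± 0.44 (SE, edgeR adjusted p = 0.00285). In G52D the change of *mug8* was 1.19 ± 0.40 (SE, edgeR adjusted p = 0.0371), and that call was lost on leaving out any of 5 libraries in turn, with edgeR adjusted p between 0.0574 and 0.112. Without the *ura4* libraries the change there was 0.63. The P102L call of *mug8* was lost without WT replicate 3 (0.96) or P102L replicate 2 (1.09) or 3 (1.18).

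**Figure D4:**
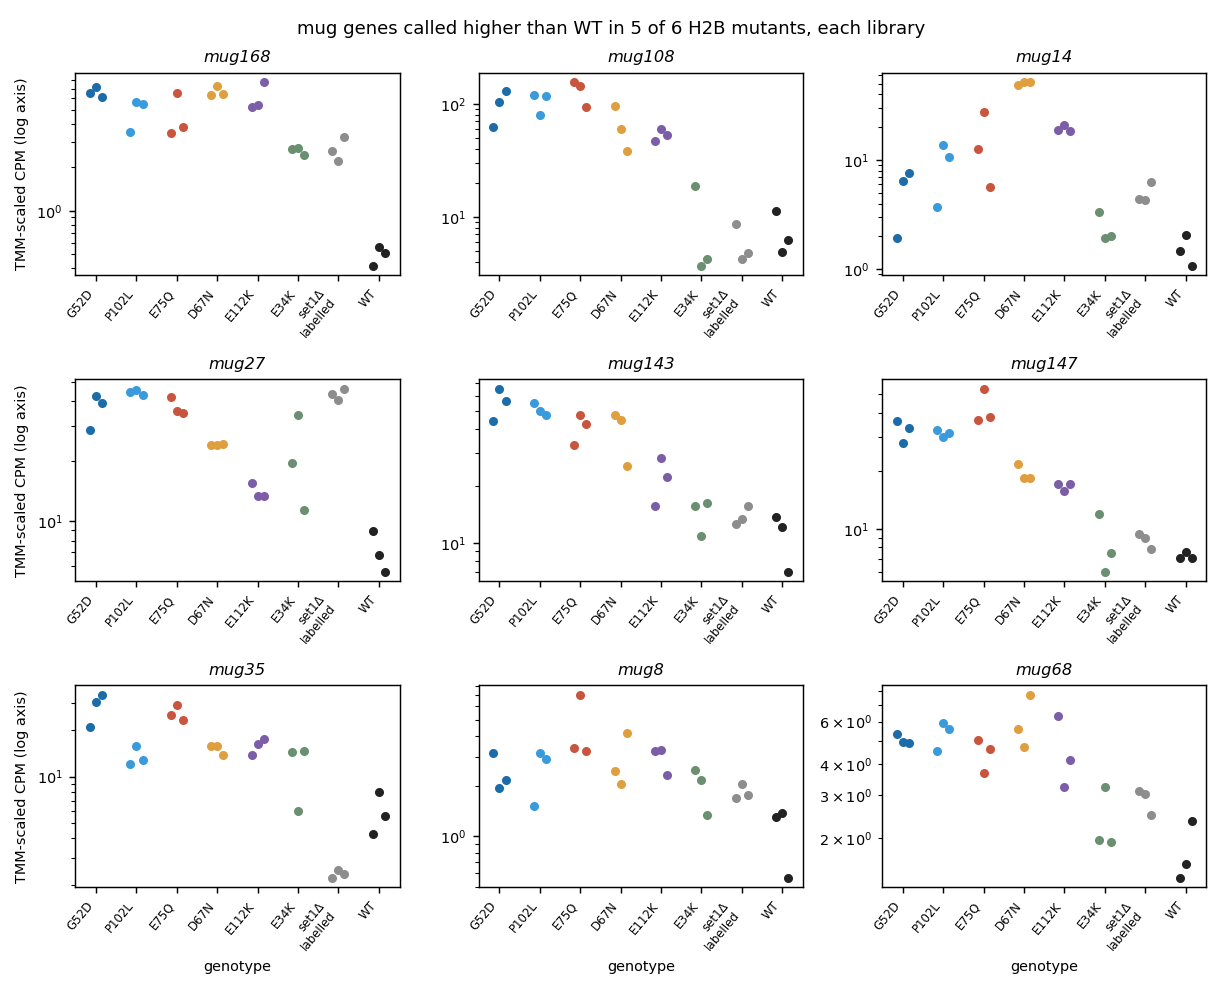
CPM (log axis) in each library of the 9 *mug* genes called higher in 5 H2B mutants, 1 panel a gene, with points for libraries. *mug108* sits at 37.9 to 155 CPM in those 5 mutants and at 4.93 to 11.1 CPM in WT, while every mutant library lies above WT for *mug168*, whose change in *htb1-E34K* was not called.

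A further 4 members were called higher in 4 H2B mutants, the exception among the 5 being E112K for *mug190* and *mug191*, G52D for *mug180* and P102L for *mug153*. *mug190*, a C2 domain protein involved in tethering the endoplasmic reticulum membrane, had 29.8, 19.3 and 23.8 CPM in G52D, 20.1, 20.5 and 22 CPM in P102L, 31.9, 55.5 and 40.8 CPM in E75Q, 14.5, 9.70 and 9.39 CPM in D67N and 6.59, 5.48 and 6.04 CPM in E112K, against 5.87, 4.68 and 5.01 CPM in WT. Its log2 fold change reached 3.03 ± 0.23 (SE, edgeR adjusted p = 3.16e-06) in E75Q, and was 0.25 ± 0.18 (SE, edgeR adjusted p = 0.308) in E112K, where it was not called. The D67N call fell to 0.91 without D67N replicate 1 and to 0.88 with a gene-length correction. *mug191*, a predicted alpha-1,6-mannanase acting on cell wall mannan, had log2 fold changes of 1.80, 1.71, 1.44 and 1.19 in the same 4 mutants and 0.06 in E112K.

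*mug180*, a predicted esterase or lipase, had the other order. It had 6.49, 5.48 and 6.64 CPM in E112K, 3.96, 4.98 and 5.21 CPM in D67N, 2.48, 2.62 and 3.74 CPM in P102L, 3.45, 3.31 and 1.19 CPM in E75Q and 1.28, 0.761 and 0.861 CPM in G52D, against 1.19, 0.873 and 0.767 CPM in WT. The log2 fold change was 2.75 ± 0.23 (SE, edgeR adjusted p = 3.85e-05) in E112K and 0.07 ± 0.39 (SE, edgeR adjusted p = 0.904) in G52D. In E75Q the call was lost on leaving out any 1 WT library or E75Q replicate 1 or 2, with edgeR adjusted p between 0.0513 and 0.0952. *mug153*, found only in *S. pombe*, was called in G52D, E75Q, D67N and E112K, with log2 fold changes of 2.38, 1.55, 1.75 and 1.93, and reached 0.97 ± 0.35 (SE, edgeR adjusted p = 0.0465) in P102L, below 2-fold. Its E75Q call was lost on leaving out any WT library or E75Q replicate 2, with edgeR adjusted p between 0.0633 and 0.115.

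By role, every group held at least 1 member called higher in an H2B mutant except the 2 mitochondrial proteins. Of all members tested in at least 1 H2B mutant, 44.7% were called higher in at least 1, so this sets no role apart. The group of meiotic chromosomes counts here through *meu6* alone. Of the 3 members that act on meiotic chromosomes, *meu13* (the Hop2 homologue for homologue pairing) and *mug20* (a linear element protein) were too low to test against WT. *meu6*, needed for meiotic chromosome segregation, had 2.45, 1.96 and 2.17 CPM in G52D, 0.700, 1.43 and 1.01 CPM in P102L and 1.96, 1.04 and 1.39 CPM in the libraries labelled *set1*Δ, against 0.297, 0.437 and 0 CPM in WT. It had only 5, 7 and 0 counts in WT and passed the filter on low counts in the G52D, P102L and *set1*Δ-labelled comparisons, through the libraries where it is high, and in none of the other 4. That itself favoured a rise, so its folds are not given. It was called in G52D, in P102L and under the *set1*Δ label. The P102L call was lost without replicate 2 (edgeR adjusted p = 0.104) or 3 (edgeR adjusted p = 0.0548) of that mutant. In a fit of all 24 libraries both the P102L call (edgeR adjusted p = 0.167) and the *set1*Δ-labelled call (edgeR adjusted p = 0.136) were lost. *meu6* lies wholly inside *clr4*, the H3 lysine 9 methyltransferase gene, on the opposite strand, and *clr4* changed by 0.69 and 0.63 in G52D and P102L.

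Among the 6 members of spore formation and the spore wall, 2 were higher in at least 1 H2B mutant, *mug27* and *meu10*. *meu10*, a wall protein for the maturing spore, had 14.2, 12.6 and 13.2 CPM in P102L, against 7.12, 5.11 and 6.64 CPM in WT, a log2 fold change of 1.10 ± 0.16 (SE, edgeR adjusted p = 0.000367). In the other 4 mutants with calls its change lay between 0.73 and 0.84, and the P102L call fell to 0.97 without WT replicate 2. *meu14*, which marks the leading edge of the forespore membrane, had log2 fold changes between -0.12 in P102L and 0.32 in E112K and was called in none of the 7 comparisons. *mug28*, an RNA-binding protein of spore formation, had 0 counts in WT and at most 20 counts in any library.

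Of the role groups, counted over members tested in at least 1 H2B mutant, those called higher in at least 1 were 3 of 4 enzymes of polysaccharides and glycosylation, 3 of 5 in the cytoskeleton or signalling, 2 of 4 RNA-binding proteins, 2 of 4 in the ubiquitin system, 2 of 4 of the UPF0300 family, 2 of 4 metabolic enzymes, 5 of 15 other conserved proteins, 2 of 10 in membrane traffic, 1 of 5 in chromatin or chaperones and 1 of 5 transporters. Of all genes tested in at least 1, 23.7% were called higher, and the last 3 groups lie below that share. The transporter was *meu22*, an amino acid permease. It had 21.6, 19.5 and 22.6 CPM in G52D, 15.9, 12.9 and 12.0 CPM in P102L, 18.5, 18.2 and 17.1 CPM in E75Q and 5.19, 5.68 and 3.95 CPM in D67N, against 6.82, 4.05 and 5.32 CPM in WT. The log2 fold change was 1.98 ± 0.20 (SE, edgeR adjusted p = 0.000101) in G52D and -0.07 ± 0.25 (SE, edgeR adjusted p = 0.853) in D67N. *mug24*, an RNA recognition motif protein, was called in D67N (1.93), E112K (2.02) and the libraries labelled *set1*Δ (1.5). The group with no known role and no relatives outside the genus held 46 members, of which 32 were tested, 19 were higher in at least 1 H2B mutant and 2 were lower. The strongly expressed *mug33*, *mug64* and *mug134* were called in no comparison with WT.

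*mug135*, of a small family with *mug2* and *meu2*, was high in some mutants and at the WT level in others. It had 21.5, 20 and 17.4 CPM in D67N, 11.7, 11 and 12.1 CPM in E112K, 7.92, 7.72 and 7.94 CPM in G52D, 1.59, 2.27 and 2.62 CPM in P102L and 2.95, 4.03 and 2.77 CPM in E75Q, against 1.96, 2.62 and 2.71 CPM in WT. Its log2 fold change was 3.07 ± 0.20 (SE, edgeR adjusted p = 1.65e-06) in D67N and -0.13 ± 0.27 (SE, edgeR adjusted p = 0.744) in P102L. *mug174*, tested in P102L, E75Q and E112K, had only 5, 7 and 2 counts in WT, against 27, 70 and 13 in E75Q. It passed the filter on low counts through the mutant libraries, which itself favoured a rise, so its fold is not given. It was called in E75Q, at 1.21, 2.41 and 0.643 CPM, against 0.297, 0.437 and 0.102 CPM in WT. That call was lost without WT replicate 1 (edgeR adjusted p = 0.0518), WT replicate 3 (edgeR adjusted p = 0.0655) or E75Q replicate 2 (edgeR adjusted p = 0.0561).

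The lower calls fell on 5 members, each in 1 H2B mutant. *mug154*, conserved among fungi, had 4.57, 2.58 and 3.41 CPM in E75Q, against 13.9, 15.1 and 12.2 CPM in WT, with a log2 fold change of -1.97 ± 0.25 (SE, edgeR adjusted p = 9.03e-05). It lay between -0.97 and -0.70 in the other 4 mutants with calls. *mug165*, a subunit of the Clr6 histone deacetylase complex, had 1.51, 1.03 and 1.35 CPM in G52D, against 3.14, 2.37 and 3.94 CPM in WT, a log2 fold change of -1.26 ± 0.32 (SE, edgeR adjusted p = 0.0104). *mug162* had a log2 fold change of -1.35 ± 0.34 (SE, edgeR adjusted p = 0.0104) in G52D, *mug123* of -1.41 ± 0.33 (SE, edgeR adjusted p = 0.0106) in E112K and the GLYK family kinase gene *mug58* of -1.10 ± 0.35 (SE, edgeR adjusted p = 0.0411) in E112K. Under scaling by total counts *mug123* was at -1.04, *mug162* at -0.72, *mug165* at -0.59 and *mug58* at -0.66, and none of these 4 was called. *mug58* also lost its call on leaving out any 1 library other than E112K replicate 1, with edgeR adjusted p between 0.0608 and 0.132, and *mug162* without the *ura4* libraries (-1.14, edgeR adjusted p = 0.0503).

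In E34K, 0 of 97 members were called, against 0.103% of all genes higher and 0.00% lower. At an unadjusted p under 0.05, 15 members were higher and 7 lower, DESeq2 called 6 higher, and a fit of all 24 libraries together called 7 higher and 1 lower. The median log2 fold change of the members was 0.34 there, beside 0.09 for all genes. The biological coefficient of variation between replicates, 0.276, was the largest of the 7 comparisons with WT, which ran from 0.141. *mug27* had 19.6, 33.9 and 11.4 CPM in E34K, above the 8.95, 6.80 and 5.57 CPM of WT, but its libraries were spread over a wide range and the change was 1.64 ± 0.36 (SE, edgeR adjusted p = 0.0922). *mug135* had 5.66, 5.64 and 6.34 CPM in E34K, with a change of 1.31 ± 0.28 (SE, edgeR adjusted p = 0.0835). DESeq2 called *mug133* (1.65), *mug135* (1.26), *mug136* (1.44), *mug24* (1.41) and *mug27* (1.60) on the log2 scale, and also *mug168*.

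In the libraries labelled *set1*Δ, the 11 higher members included *mug14*, *mug24*, *mug27*, *mug168* and *meu6*. *mug146* passed the filter on low counts in this comparison with WT only, and *mug73* was tested in all 7 and called in this one. *mug146*, confined to *Schizosaccharomyces*, had 0.951, 1.77 and 1.93 CPM, against 0.178, 0.312 and 0.204 CPM in WT. Its counts were 18, 44 and 46, against 3, 5 and 4 in WT. It thus passed the filter through the libraries where it is high, which itself favoured a rise, so its fold is not given. *mug73*, a predicted regulator of transport across the plasma membrane, had 3.59, 4.14 and 4.33 CPM in the libraries labelled *set1*Δ, against 0.949, 1.31 and 1.58 CPM in WT, a log2 fold change of 1.71 ± 0.23 (SE, edgeR adjusted p = 0.000526). As the *set1* counts go against the label, these directions belong to the libraries as labelled and not to a known loss of Set1.

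The H2B mutants were also compared directly in pairs that share no WT library. Between G52D and P102L, 4 of 104 members were higher and 2 lower in G52D, against 3.37% and 3.39% of all genes. *mug135* had a log2 fold change of 1.82 ± 0.22 (SE, edgeR adjusted p = 0.000568), *mug15* of 1.76, *mug153* of 1.41 and *mug35* of 1.03. *mug180*, at -1.61 ± 0.34 (SE, edgeR adjusted p = 0.00972), and the dynamitin homologue *mug1*, a dynein regulator, at -1.44, were lower in G52D. The *mug35* call fell under 2-fold without any 1 of 4 libraries (0.90 to 0.99), *mug15* lost its call without G52D replicate 3 (edgeR adjusted p = 0.0620) or P102L replicate 2 (edgeR adjusted p = 0.0868) or 3 (edgeR adjusted p = 0.0787), and *mug180* without P102L replicate 3 (edgeR adjusted p = 0.0562). The total of 6 became 3 without P102L replicate 3 and 9 without G52D replicate 1 or 2, and scaling by total counts gave 5 higher and 0 lower. The members' share was close to that of all genes.

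Between E75Q and D67N, 15 of 103 members were higher and 9 lower in E75Q, against 5.95% and 4.63% of all genes. Of the 24, 9 were called whichever library was left out, and they are named here after their values had been seen. Higher in E75Q were *mug190*, *meu22*, *mug84*, *meu17*, *mug65* and *meu27*. *meu22* had 18.5, 18.2 and 17.1 CPM in E75Q, against 5.19, 5.68 and 3.95 CPM in D67N, a log2 fold change of 1.87 ± 0.21 (SE, edgeR adjusted p = 0.000279). *meu17*, a predicted glucan alpha-1,4-glucosidase, had 21.4, 19.1 and 28.5 CPM in E75Q, against 7.82, 8.79 and 7.89 CPM in D67N, a log2 fold change of 1.5 ± 0.20 (SE, edgeR adjusted p = 0.000944). *meu27*, of the UPF0300 family, had 15, 69 and 45 counts in E75Q, against 2, 0 and 0 counts in D67N, too few for a fold, and lies wholly inside *chk1*, the checkpoint kinase gene, on the opposite strand.

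Lower in E75Q were *mug14*, *mug135* and *mug106*. *mug14* had a log2 fold change of -1.72 ± 0.42 (SE, edgeR adjusted p = 0.0175) and *mug135* of -2.58 ± 0.22 (SE, edgeR adjusted p = 7.63e-05). *mug106*, found only in *S. pombe*, had 7.07, 7.03 and 11.4 CPM in E75Q, against 38.5, 39.5 and 23.9 CPM in D67N, a log2 fold change of -1.99 ± 0.26 (SE, edgeR adjusted p = 0.000847). The total of 24 became 14 without D67N replicate 1, 12 without D67N replicate 2 and 16 without E75Q replicate 2. Scaling by total counts gave 7 higher and 2 lower.

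**Figure D5:**
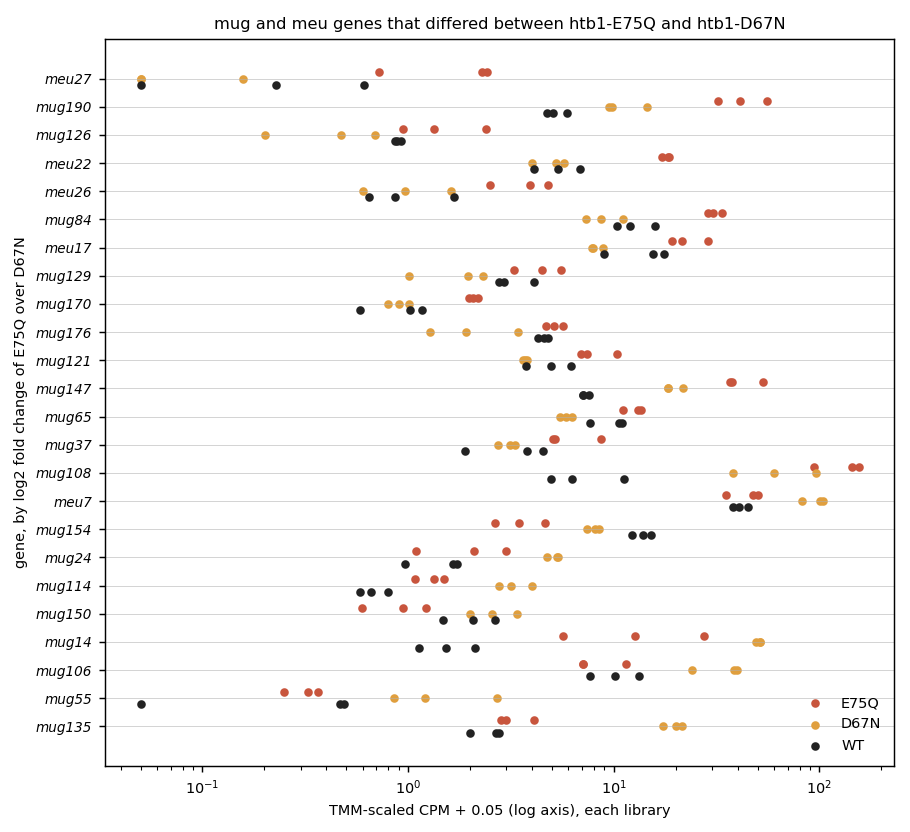
CPM plus 0.05 (log axis) in each library of *htb1-E75Q*, *htb1-D67N* and WT for the 24 *mug* and *meu* genes called between both mutants. *meu27* has the lowest values in *htb1-D67N*, with 2 counts in 1 library and 0 in the others, and *mug108* is the member whose mutant libraries overlap.

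Many members share their position with another gene, which bears on what unstranded counts can separate. In the reference annotation 111 of the 123 (90.2%, other genes 89.9%) are overlapped by an annotated gene on the opposite strand, and 77 (62.6%, other genes 45.1%) have at least 50% of their length under 1 such gene. For 46 members (37.4%, other genes 37.6%) the overlapping gene is itself in the tables. *mug55*, a WD repeat protein of the Cdc20 family, lies inside *mug163*, and *mug58* overlaps *mug177* over 87.4% of its length, so these pairs are neighbours within the member set. *mug162* overlaps *sst6* over 57.5% of its length, and *sst6* had a log2 fold change of 3.86 in G52D, where *mug162* was lower. *mug123* overlaps *taf6* over 78.2%, with *taf6* at 0.06 in E112K.

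Meiosis genes outside the *mug* and *meu* names moved unevenly. Of 12 regulators of mating and entry into meiosis, those higher were 3 of 10 tested in G52D, 4 of 10 in P102L, 3 of 10 in E75Q, 5 of 9 in D67N, 5 of 10 in E112K, 0 of 10 in E34K and 5 of 10 in the libraries labelled *set1*Δ. The shares of all genes higher in the same comparisons were 13.4%, 9.93%, 13.0%, 10.8%, 7.96%, 0.103% and 5.16%. *mei4* had 76, 56 and 78 counts in G52D and 136, 103 and 80 in E75Q, against 23, 21 and 23 in WT, and was called in 5 H2B mutants and under the *set1*Δ label. *mei2* had 564, 267 and 431 counts in E112K and 191, 162 and 231 in D67N, against 20, 8 and 23 in WT, and log2 fold changes of 4.03 and 3.29. *ste11* was higher in E112K (1.27) and under the *set1*Δ label (1.07), and lay at -0.39 in G52D.

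Of 10 genes of meiotic mRNA elimination, all tested, 1 was higher and 1 lower in G52D and in P102L, 3 and 0 in E75Q, 2 and 1 in D67N and 2 and 0 in E112K. In E34K and under the *set1*Δ label it was 0 and 0. The shares of all genes higher are those given for the entry regulators, here and for the lists that follow. Among the 10, *rrp6*, the nuclear exosome nuclease, was higher in 5 H2B mutants, and *erh1*, the Mmi1 partner, was lower in G52D, P102L and D67N. Of 17 sporulation genes, 3 of 15 tested were higher in G52D, 3 of 14 in P102L, 3 of 14 in E75Q, 1 of 13 in D67N, 1 of 16 in E112K, 0 of 14 in E34K and 2 of 15 under the *set1*Δ label. Of 15 recombination genes, 3 of 10 tested were higher and 1 lower in G52D, 4 and 2 of 9 in P102L, 3 and 0 of 10 in E75Q, 1 and 2 of 11 in D67N, 2 and 1 of 11 in E112K, 0 and 0 of 9 in E34K and 1 and 0 of 9 under the *set1*Δ label. Of all genes, 8.07% were lower in G52D, 3.48% in P102L, 8.48% in E75Q, 4.48% in D67N, 2.34% in E112K, 0.00% in E34K and 1.30% under the *set1*Δ label. Of 7 targets of Mmi1, those higher were 2 of 4 tested in G52D, 3 of 3 in P102L and 2 of 4 in E75Q. In D67N, 1 of 4 was higher and 1 lower. Higher elsewhere were 1 of 5 in E112K, 0 of 3 in E34K and 1 of 3 under the *set1*Δ label. Their summed level was 21.0 to 21.9 CPM in P102L, 8.35 to 10.16 CPM in G52D and 10.4 to 18.1 CPM in E75Q. It was 8.66 to 9.68 CPM in E112K, 8.43 to 13.96 CPM in E34K and 10.4 to 12.3 CPM under the *set1*Δ label. D67N, at 6.18 to 7.28 CPM, overlapped the 5.80 to 7.24 CPM of WT, and every library of the other groups lay above WT.

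Markers of other cell states also differed between groups. Summed over 8 genes of cells in meiosis, the level was 73.6 to 101 CPM in G52D, 87.9 to 116 CPM in P102L, 105 to 137 CPM in E75Q, 93.4 to 132 CPM in D67N, 80.6 to 94.3 CPM in E112K, 64.3 to 84.3 CPM in E34K and 70.4 to 81.3 CPM in the libraries labelled *set1*Δ, and 43.5 to 54.5 CPM in WT. The E34K libraries thus lay above WT in this sum, where their member sum overlapped WT. Of the 8 genes, 3 of 6 tested were called higher in G52D, 3 of 4 in P102L, 3 of 5 in E75Q, 2 of 5 in D67N, 2 of 7 in E112K, 0 of 5 in E34K and 2 of 5 under the *set1*Δ label. The defining marker *mei3*, which is induced only in the mated diploid, had 0 to 14 counts per library and was not tested, and none of the 8 was at 0 counts throughout a group. Summed over 8 genes of M cells, the level was 70.7 to 96.9 CPM in G52D, 39.3 to 71.9 CPM in P102L, 38.6 to 56.7 CPM in E75Q, 33.4 to 39.0 CPM in D67N, 42.4 to 60.9 CPM in E112K, 23 to 29.7 CPM in E34K and 44.5 to 46.1 CPM under the *set1*Δ label, against 25.3 to 41.4 CPM in WT. From 0 to 1 of the 3 to 5 tested were called higher, and 1 or 2 of the 8 were at 0 counts throughout each group. Summed over 4 genes of P cells, it was 29.1 to 37.0 CPM in G52D, 21.2 to 23.9 CPM in P102L, 22 to 30.6 CPM in E75Q, 28.0 to 35.9 CPM in D67N, 38.1 to 53.4 CPM in E112K, 23.9 to 29.3 CPM in E34K and 38 to 44.0 CPM under the *set1*Δ label, against 19.4 to 23.8 CPM in WT. Of these 4, 3 were tested in G52D, with 1 higher and 1 lower. All 4 were tested elsewhere, with 1 higher in P102L, in E75Q and in D67N, 3 in E112K, 0 in E34K and 3 under the *set1*Δ label. Of all genes, 13.4% were higher in G52D (8.07% lower), 9.93% in P102L, 13.0% in E75Q, 10.8% in D67N, 7.96% in E112K, 0.103% in E34K and 5.16% under the *set1*Δ label. The part of these cell states in the members' changes was not tested.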

How the data were processed

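RNA was extracted with Trizol, enriched with oligo(dT) and sequenced on an Illumina HiSeq by the authors. Per their methods and the submitters' processing notes, fastp trimmed the reads, Bowtie2 removed ribosomal RNA, HISAT2 aligned to Ensembl release 45 of *S. pombe* and StringTie gave FPKM. RSEM and DESeq2 are also listed, with no role or version. The counting program and its use of strand are not given in the sources used here. The authors deposited counts per gene and FPKM values side by side, and the count columns summed to 18935513 to 28181070 per library, so a low gene's precision is set by its count. The deposited tables also hold the authors' own fold changes and p-values, which were not used, and 0 per-sample columns were left out.

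Members and gene lists were chosen with earlier results of these data known. Counts were tested with edgeR 4.0.16 in R 4.3.3 (filterByExpr, trimmed mean of M values, quasi-likelihood F test), 3 libraries against 3, with Benjamini-Hochberg adjustment over all genes tested. Calls were made at 2-fold or more with an adjusted p below 0.05. DESeq2 1.42.0, total-count scaling, other count filters, a gene-length offset, a fit of all 24 libraries, the replicate number as a block and the removal of single libraries were alternatives. The test was tried on simulated counts first. The study describes 3 independent biological repeats, and every pair of replicates differed by more than sampling noise. Replicate numbers did not pair samples.

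Named were members called in the same direction in at least 4 of the 6 H2B mutants, the 3 largest rises and falls per comparison, members called in opposite directions, members of known role, the 3 highest in WT, members at 0 throughout, and all members of any count of 5 or fewer. Outside this rule, *mug1*, *mug15*, *mug24*, *mug55*, *mug65*, *mug73*, *mug84*, *mug96*, *mug106*, *mug128*, *mug133*, *mug135*, *mug136* and *meu27* were added after their values were seen. CPM was computed from counts over all libraries and an SD is over 3 libraries. Gene overlaps come from the RefSeq annotation of ASM294v3, matched by locus tag for 5109 genes and all 123 members. The assembly of the deposited files was not named, so no sequence or coordinate is given. Python 3.11.15, pandas 2.3.3, NumPy 2.4.6 and matplotlib 3.10.9 were used.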

Additional observations from a re-analysis of the deposited data

How the results depend on the processing

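Of the 138 member calls against WT, 34 were lost without at least 1 library: 7 of 29 in G52D, 3 of 22 in P102L, 9 of 26 in E75Q, 5 of 24 in D67N, 7 of 25 in E112K and 3 of 12 under the *set1*Δ label. Of 79 called changes of named members, 0 reversed under any alternative and 16 lost their call under at least 1, of which 12 did so without a single library. Against the counts given above, total-count scaling gave 47 higher and 0 lower in G52D, 38 higher in E75Q, 0 lower in E112K, 2 higher in E34K and 9 in all between E75Q and D67N. An adjusted p alone, with no fold threshold, gave 7 lower in G52D, 8 in P102L, 3 in E75Q, 8 in D67N and 9 in E112K, 19 higher and 8 lower under the *set1*Δ label, and 13 between G52D and P102L. DESeq2 gave 1 lower in P102L, 2 in E75Q and 1 in D67N, and 6 higher in E34K. Without the *ura4* libraries G52D had 26 higher and 1 lower, and P102L 24 higher and 3 lower. With at least 10 counts in every library E75Q had 2 lower and the *set1*Δ label 6 higher. All 24 libraries in 1 fit gave 2 lower in E75Q, 1 lower in D67N, and 7 higher and 1 lower in E34K. The gene-length offset gave 1 lower in E112K and 1 higher in E34K. Causes were not tested. The number of members that differed among genotypes, 73 of 110, ranged from 56 to 81.

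With 1 library left out, higher and lower calls ranged over 22 to 26 and 2 to 3 in G52D, 20 to 23 and 0 to 2 in P102L, 17 to 28 and 1 to 2 in E75Q, 20 to 23 and 0 to 3 in D67N, 20 to 23 and 1 to 3 in E112K, 0 to 2 and 0 to 0 in E34K, and 8 to 13 and 1 to 1 under the *set1*Δ label. All calls ranged over 3 to 9 between G52D and P102L and 12 to 20 between E75Q and D67N. The labels give no shared batch for replicate numbers, and deviations of same-numbered libraries correlated at -0.20 to 0.24, so the numbers were not taken as a pairing. With the replicate block, E75Q had 2 lower, D67N 1 lower and E34K 1 higher, and it removed none of the 79 calls. Members under about 1 CPM rest on few counts, and of the 19 tested in no comparison with WT, 6 entered the test over the 8 genotypes.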
